A study of Mus musculus with 5 samples.

Results

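Granulosa and mesenchymal cells of the mouse ovary were compared between 3 wk and 4 wk of age. The ovaries came from untreated C57BL6/J mice, were dissociated with trypsin and sorted for live cells, and each age was sequenced as 1 library from the 3′ ends of transcripts (10x Genomics, v3.1). The sources used here do not give the number of mice behind a library. Both tables of counts were made with Cell Ranger 3.1.0, whereas the libraries of 5 wk and 6 wk, used here only for the course of levels and the counts of other steps, were made with version 6.0.1. Cells were kept when they had at least 1000 detected genes and under 15% of their unique molecular identifiers (UMIs, the count of distinct RNA molecules) on mitochondrial genes. A kept cell was taken as granulosa with at least 5 UMIs of Inha, the inhibin alpha subunit, and no UMI of Dcn, the matrix proteoglycan decorin. It was taken as mesenchyme with at least 3 UMIs of Dcn and at most 4 of Inha. These gates held 12628 of the 20330 cells deposited for both ages, and the whole series holds 48163 cells.

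Granulosa cells surround the oocyte, respond to follicle-stimulating hormone, turn androgens into oestrogen and secrete inhibin, activin and anti-Müllerian hormone. The mesenchyme between the follicles comprises fibroblasts, smooth muscle cells, pericytes and the theca cells that supply the androgens. In mice the ages compared here lie before the first ovulations, when the follicles that began to grow soon after birth (the first wave) reach the antral stage and most of them are lost to atresia. Interferons are cytokines that act through STAT and IRF transcription factors on genes carrying an interferon-stimulated response element, and many of these genes serve antiviral defence or antigen presentation.

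The 3-wk library gave 2971 granulosa and 2759 mesenchymal cells among 7660 kept cells, and the 4-wk library gave 4508 and 2390 among 9169. Granulosa cells were thus 38.8% (95% exact binomial interval 37.7 to 39.9) of the kept cells at 3 wk and 49.2% (48.1 to 50.2) at 4 wk. Mesenchymal cells were 36.0% (34.9 to 37.1) and 26.1% (25.2 to 27.0), and 1930 and 2271 kept cells entered neither gate. Dissociation and sorting also set such shares, and their part was not tested. The Inha gate is set in UMIs per cell: 23 cells at 3 wk and 67 at 4 wk lay just inside it with 5 Inha UMIs and no Dcn, and 38 and 76 lay just outside with 4. At the Dcn gate, 309 and 207 cells had 3 UMIs, and 331 and 266 had 2. Because Inha and Dcn chose the cells, their levels are not results.

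Depth per cell was similar at both ages. In granulosa cells the median was 13471 UMIs for the younger and 13228 for the older library, and in mesenchyme it was 8271 and 7912.5. The level of a gene was its UMIs summed over the cells of a lineage scaled to counts per 1000000 UMIs of these cells (CPM), and the sums rest on 43022686 and 64972674 UMIs in granulosa cells and on 26605007 and 21844837 in mesenchyme. All intervals are at 95% and cover counting error alone. The spread between mice was not measured and no test between the ages was possible, so a gene was counted as past the fold when its CPM at 4 wk was at least 2-fold higher or lower than at 3 wk. Ratios are 4 wk over 3 wk throughout.

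The labels of the lineages were checked against other markers. Over a list of 10 granulosa markers that includes Foxl2, Amh and Gja1, the summed level was 5259 CPM at 3 wk and 4395 at 4 wk in the granulosa gate, against 479 and 499 in the mesenchyme gate. Over 10 mesenchymal markers it was 8153 and 9130 CPM in the mesenchyme gate, against 257 and 316 in granulosa cells. Not every marker followed these sums. Foxl2 was at 164 and 85.9 CPM in granulosa cells and at 101 and 108 CPM in the mesenchyme gate. The mesenchymal marker Fbln1 was higher in granulosa cells, at 176 and 219 CPM, than in mesenchyme, at 91.1 and 121 CPM. The mesenchyme gate mixed cell types: 846 of its cells at 3 wk (30.7%) and 600 at 4 wk (25.1%) held at least 10 UMIs of the smooth muscle genes Tagln, Myh11, Actg2 and Cnn1. Few cells, 19 and 20, held 3 or more UMIs of steroidogenic genes. Cells with at least 3 UMIs of blood cell markers numbered 3 and 14 in mesenchyme and 3 and 8 among granulosa cells. Cells with at least 2 UMIs of the proliferation genes Mki67, Top2a and Cdk1 made up 27.1% of granulosa cells at 3 wk and 28.4% at 4 wk, and 9.57% and 10.7% of mesenchyme. Scrublet called doublets at 0.875% and 2.75% of granulosa cells and at 0.399% and 1.13% of mesenchyme, and they were kept. The libraries shared 33 cell barcodes, 11 of which lay in a gate at both ages.

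More genes differed by 2-fold in granulosa cells than in mesenchyme. Of 8168 genes with at least 10 CPM at either age in granulosa cells, 212 were at least 2-fold higher at 4 wk (2.6%) and 151 at least 2-fold lower (1.85%). In mesenchyme, 74 of 8189 genes were higher (0.904%) and 15 lower (0.183%). At 1.5-fold the counts were 498 higher (6.1%) and 366 lower (4.48%) in granulosa cells, and 249 higher (3.04%) and 85 lower (1.04%) in mesenchyme. The median gene stood at a log2 ratio of -0.06 in granulosa cells and 0.02 in mesenchyme, so the scale itself was level. The counting interval of the ratio excluded 1 for each of the 363 and 89 genes past 2-fold. At 10 CPM on sums of this size any 2-fold ratio has such an interval, so this is no further support for the calls.

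Most granulosa genes past the fold did not pass it in mesenchyme. Among the 7202 genes measured in both lineages, 229 were past 2-fold in granulosa cells and 26 in mesenchyme. Of the 7202, 10 were at least 2-fold higher in both (0.139%), 2 were lower in both (0.0278%) and 4 went opposite ways (0.0555%). The 10 and 2 genes with a shared direction were a minority of the 26 mesenchymal ones and a small part of the 229 granulosa ones. Together with the 4 opposite ones they made up most of the 26. A gene was counted for granulosa cells alone when it was past 2-fold there and near level in mesenchyme, with the lower of its mesenchymal levels at least 80% of the higher. This held for 75 genes higher (1.04%) and 50 lower (0.694%). The converse held for 4 genes higher (0.0555%) and 2 lower (0.0278%) in mesenchyme alone. The higher ones included Fst, Amhr2 and Tnni3, and the lower ones were H19 and Zfp711. The 150 genes that were at least 2-fold higher in granulosa cells and measured in mesenchyme had a median ratio of 2.60 in the former and 1.22 in the latter. For the 79 genes that were lower in granulosa cells the medians were 0.403 and 0.999. In the other direction, the 20 genes higher in mesenchyme and measured in granulosa cells had a median ratio of 2.29 in mesenchyme and 1.97 in granulosa cells. A further 134 granulosa and 63 mesenchymal genes past the fold were below 10 CPM at both ages in the other lineage.

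**Figure D1:**
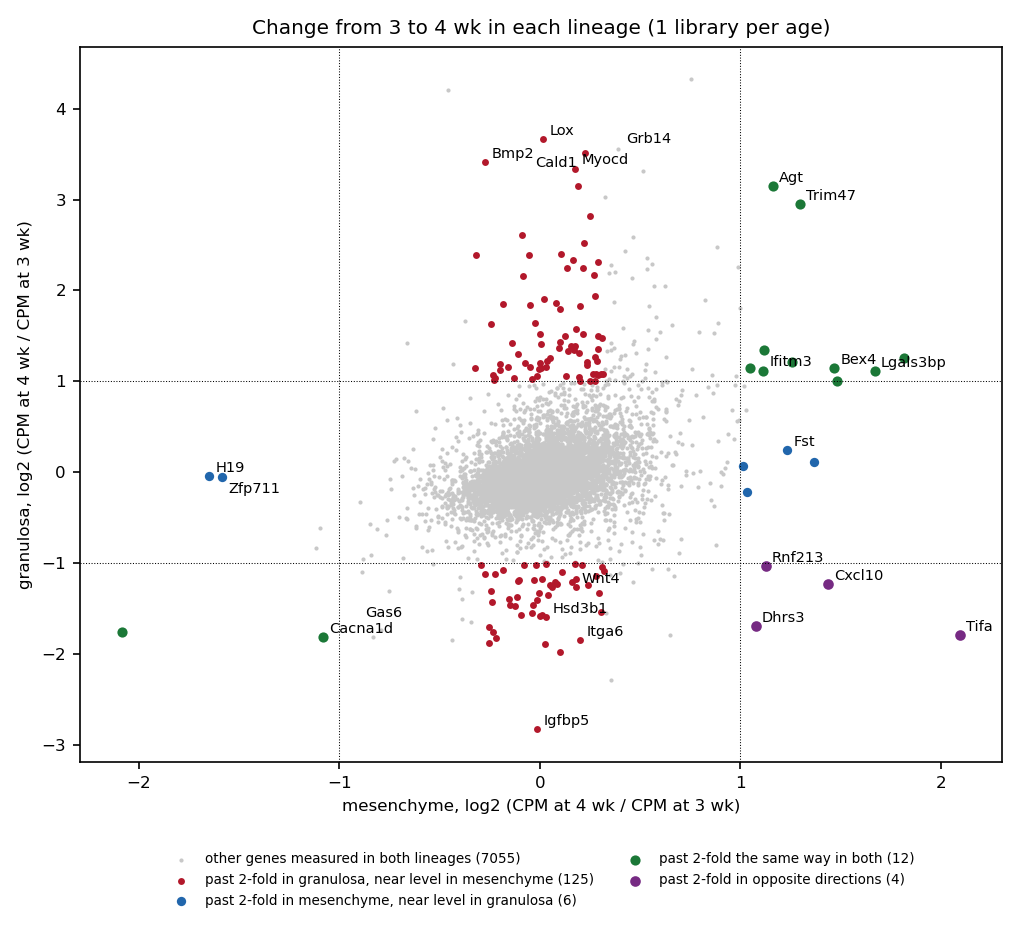
Each point is a gene measured in both lineages, with its log2 ratio of 4 wk over 3 wk in mesenchyme on the x axis and in granulosa cells on the y axis; dotted lines mark 2-fold. The points spread farther along the granulosa axis, with 125 genes past 2-fold in granulosa cells alone, 6 in mesenchyme alone, 12 past it the same way in both and 4 past it in opposite ways.

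In granulosa cells the genes with the highest ratios included signalling adaptors, contractile genes, a growth factor and hormone-related genes. Grb14, an adaptor that binds and inhibits the insulin receptor (ENSMUSG00000026888, GRCm38 chr2:64912476-65024987, minus strand), was at 66.7 CPM (64.3 to 69.2) at 3 wk and at 783 CPM (776 to 790) at 4 wk. Its ratio was 11.7 (11.3 to 12.2). The share of granulosa cells with a Grb14 UMI was 38.2% (36.5 to 40.0) and 83.6% (82.4 to 84.6), and after each cell was thinned to 4000 UMIs it was 18.0% and 72.3%. In kept cells outside the gates with endothelial markers Grb14 was read at 27.6 and 164 CPM, and the part of free RNA in these shares was not tested. In mesenchyme Grb14 was at 112 and 146 CPM, a ratio of 1.31.

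Cald1 and Myocd belong to the contractile programme. Cald1 encodes caldesmon, an actin-binding regulator of contraction (ENSMUSG00000029761, chr6:34598500-34775473, plus strand), and was at 39.7 CPM at 3 wk and 454 CPM at 4 wk in granulosa cells, a ratio of 11.4 (10.9 to 12). It was detected in 19.7% and 57.4% of granulosa cells. Myocd, the coactivator of serum response factor that drives smooth muscle genes, was at 2.32 and 23.5 CPM, a ratio of 10.1. In mesenchyme Cald1 was at 1003 and 1175 CPM, a ratio of 1.17, so the ratio of the lineages' ratios was 9.77 (9.28 to 10.3). The smooth muscle genes Acta2 and Tagln were at 43.5 and 115 CPM and at 37.1 and 86.9 CPM in granulosa cells. They had the highest ratios of the 5 listed smooth muscle genes measured there. Of the others, Tpm2 was at 15.4 and 23.4 CPM, Myl9 was lower, at 60.9 and 42.4 CPM, and Myh11 was level, at 12.6 and 12.4 CPM. For Tagln, 10 cells held 52.0% of the 3-wk and 22.3% of the 4-wk UMIs. The whole list of smooth muscle genes summed to 183 and 297 CPM in granulosa cells and to 5887 and 5780 CPM in mesenchyme, and how much of the granulosa value is carried over from smooth muscle cells was not tested.

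Bmp2, a ligand of the bone morphogenetic protein family (ENSMUSG00000027358, chr2:133552159-133562885, plus strand), was at 5.49 CPM at 3 wk and 58.3 CPM at 4 wk in granulosa cells, a ratio of 10.6 (9.31 to 12.2). It was detected in 5.62% and 34.3% of the cells. In mesenchyme Bmp2 was at 41.6 and 34.4 CPM, so the lineages differed by 12.8-fold (10.9 to 15.1) in their ratios. Its type 2 receptor Bmpr2 was at 170 and 340 CPM in granulosa cells. Ligand and receptor were thus both higher in the 4-wk granulosa cells, at ratios of 10.6 and 2.00.

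The highest ratios also included a hormone receptor and a hormone precursor. Ghr, the growth hormone receptor, was at 6.04 and 60.3 CPM in granulosa cells, a ratio of 9.98 (8.80 to 11.4). Agt, angiotensinogen (ENSMUSG00000031980, chr8:124556534-124569706, minus strand), was at 10.8 and 95.7 CPM, a ratio of 8.87 (8.07 to 9.77). Igf1, the growth factor that acts with follicle-stimulating hormone on granulosa cells, was at 115 and 219 CPM, a ratio of 1.91. Esr2, the oestrogen receptor of granulosa cells, was at 138 and 211 CPM, a ratio of 1.52. Igf1 and Esr2 thus stayed under 2-fold.

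Several of the largest ratios belonged to genes at low levels at 3 wk. Fgd5, an exchange factor for the small GTPase Cdc42, was at 0.604 CPM at 3 wk and 25.8 CPM at 4 wk, a ratio of 42.7 (29.0 to 65.6), with a UMI in 0.64% and 20.1% of granulosa cells. Asb4 was at 1.28 and 25.6 CPM, Krt20, a keratin, at 2.35 and 28.7 CPM, and Lox, the lysyl oxidase that crosslinks collagen, at 1.16 and 14.7 CPM. Lox was at 46.1 and 46.6 CPM in mesenchyme, where the ages did not differ beyond counting error. Other genes of the extracellular space were higher too: the aggrecanase Adamts5 was at 4.14 and 33.8 CPM, the collagen Col11a1 at 26.2 and 132 CPM, the protease Mmp11 at 34.1 and 164 CPM, and the secreted peroxidase Gpx3 at 41.1 and 236 CPM. Among the remaining genes with the highest ratios were Cdc42ep3, an effector of Cdc42, at 4.58 and 40.5 CPM, Trim47, a ubiquitin ligase, at 4.58 and 35.4 CPM, and Sytl2, a regulator of vesicle transport, at 3.16 and 22.3 CPM. Nupr1, a stress-inducible nuclear protein, was at 120 and 568 CPM.

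At the other end, Igfbp5, a binding protein that holds insulin-like growth factors (ENSMUSG00000026185, chr1:72857932-72874884, minus strand), was at 270 CPM (265 to 275) at 3 wk and at 38.0 CPM (36.5 to 39.5) at 4 wk in granulosa cells. Its ratio was 0.141 (0.135 to 0.147), and it was detected in 62.8% and 16.3% of the cells. In mesenchyme Igfbp5 was at 111 and 110 CPM, a ratio of 0.992. Itga6, the integrin subunit that binds laminin of the follicle's basement membrane, was at 263 and 72.8 CPM in granulosa cells, a ratio of 0.277, and at 36.7 and 42.3 CPM in mesenchyme. Both genes were thus lower at 4 wk in granulosa cells alone.

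Hormone and steroid genes of granulosa cells were lower at 4 wk in several cases. Hsd3b1, the dehydrogenase that makes progesterone from pregnenolone (ENSMUSG00000027871, chr3:98852194-98859794, minus strand), was at 630 CPM at 3 wk and 208 CPM at 4 wk, a ratio of 0.330 (0.324 to 0.337), with a UMI in 81.5% and 41.5% of the cells. Inhba and Inhbb, the beta subunits of inhibin and activin, were at 309 and 105 CPM and at 364 and 165 CPM. The share of cells with an Inhba UMI was 23.7% and 26.2%, so the level was lower at 4 wk while the share of cells was not. Amh, anti-Müllerian hormone, was at 813 and 540 CPM, a ratio of 0.664, and Foxl2, the transcription factor that maintains granulosa identity, at 164 and 85.9 CPM, a ratio of 0.524. In the mesenchyme gate the Foxl2 ratio was 1.08. Among granulosa cells, further genes were lower. Shbg, the sex hormone-binding globulin, was at 47.3 and 11.4 CPM. Of the 10 granulosa markers, 7 stood below a ratio of 1 and 2 were at least 2-fold lower, with a median log2 ratio of -0.14. Of all genes measured in granulosa cells 1.85% were at least 2-fold lower, and the median log2 ratio was -0.06.

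Of 21 listed genes of the WNT pathway 8 were measured in granulosa cells, and 4 of them were at least 2-fold lower at 4 wk, against 1.85% of all genes measured, with a median log2 ratio of -0.99. The other 4 ranged from a ratio of 0.582 for Nkd1 to 0.995 (0.943 to 1.05) for the coreceptor Lrp6, which was level. Among the ligands, Wnt4, which acts in ovarian differentiation (ENSMUSG00000036856, chr4:137277489-137299726, plus strand), was at 261 and 109 CPM, a ratio of 0.416 (0.403 to 0.428), and Wnt6 was at 63.6 and 21.7 CPM. Axin2, a target gene of beta-catenin signalling, was at 12.3 and 4.39 CPM, and Sfrp1, a secreted antagonist, at 18.5 and 8.08 CPM. Axin2, Sfrp1, Fzd2 and Znrf3 were under 10 CPM at 4 wk and were measured only through their 3-wk level. A listed gene at such a level could enter only as lower, so the count and the median lean to the low side. When cells were thinned to 4000 UMIs, the Axin2 ratio was 0.526 and its call was lost. In mesenchyme 9 WNT genes were measured, none was past 2-fold and the median log2 ratio was 0.14. Wnt4 was at 121 and 137 CPM there, so the lineages' ratios for Wnt4 stood at 0.367 to each other.

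Ligands, receptors and targets of the transforming growth factor family did not share a direction in granulosa cells. Of 20 listed genes 16 were measured, 2 were at least 2-fold higher (Bmp2 and Bmpr2), 2 at least 2-fold lower (Inhba and Inhbb), and the median log2 ratio was 0.17. Over all genes measured in granulosa cells, 2.6% were higher by this fold and 1.85% lower, with a median of -0.06. Among the receptors, Bmpr1b was at 68.3 and 113 CPM, and among the targets the feedback inhibitor Smad7 was at 77.1 and 135 CPM and Id3, a transcriptional inhibitor, at 309 and 445 CPM. The activin-binding protein Fst was near level, at 339 and 400 CPM. In mesenchyme Fst, at 5.37 and 12.6 CPM, and the receptor Amhr2, at 9.32 and 19.1 CPM, were past 2-fold. The levels of Fst were under 5% of those in granulosa cells at both ages and that of Amhr2 at 3 wk.

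Of 17 genes of the insulin-like growth factor system 13 were measured in granulosa cells, 2 at least 2-fold higher (Grb14 and Ghr) and 2 at least 2-fold lower (Igfbp5 and Igfbp6), with a median log2 ratio of 0.51. The shares over all genes measured in these cells were 2.6% and 1.85%, here and for the further granulosa lists of this paragraph. The receptor Igf1r was near level at 170 and 185 CPM, and the signal transducer Irs2 was at 50.7 and 81.7 CPM. In mesenchyme 13 were measured and only Igfbp3 was past 2-fold, a call that was lost with stricter cell filters. Among 12 measured genes of steroid synthesis and gonadotropin reception in granulosa cells, Hsd3b1 was at least 2-fold lower and Cyp1b1, an oestrogen hydroxylase, at least 2-fold higher, at 23.0 and 55.2 CPM, while Hsd17b1, which makes oestradiol from oestrone, was level at 127 and 122 CPM. The list's median log2 ratio was 0.14, and 0.25 in mesenchyme. Stress and cell death genes were divided as well, with Nupr1 and Gadd45b, at 86.5 and 218 CPM, at least 2-fold higher and the survival gene Bcl2, at 60.9 and 18.6 CPM, at least 2-fold lower among 17 measured.

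The remaining genes with the lowest ratios in granulosa cells were a mixed group. They comprised Gstm6, a glutathione transferase, at 25.6 CPM at 3 wk and 4.77 CPM at 4 wk, the calcium-binding proteins Ncald and Calb1 at 23.5 and 4.82 CPM and at 25.7 and 5.40 CPM, and Tgfbr3l at 28.6 and 6.31 CPM. The kinase Mapk13 was at 39.0 and 9.16 CPM, the homeobox gene Rhox8 at 21.9 and 5.42 CPM, and Tmem171 at 23.8 and 5.82 CPM. Susd4, a complement inhibitor, was at 53.0 and 13.1 CPM, Mical2, which oxidizes actin, at 69.6 and 17.7 CPM, and Gtf2a1, a general transcription factor, at 210 and 56.7 CPM. Matrix genes stood on this side as well, namely Col18a1 at 158 and 46.5 CPM and the proteoglycan Vcan at 161 and 64.2 CPM. The collagen list was therefore split, with 2 of its 11 measured genes at least 2-fold higher, 3 at least 2-fold lower and a median log2 ratio of -0.07. Over all genes measured in granulosa cells the shares were 2.6% higher and 1.85% lower.

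Genes of cell division stood to the high side for mitosis and to the low side for replication, without passing the fold. All 20 listed genes of G2 and mitosis stood above a ratio of 1 in granulosa cells, 5 of them by at least 1.5-fold and none by 2-fold, with a median log2 ratio of 0.50 and summed levels of 1016 and 1398 CPM. Of all genes measured in granulosa cells, 6.1% were at least 1.5-fold higher. Without the cells that held at least 2 UMIs of Mki67, Top2a and Cdk1, 4 of the listed genes were at 10 CPM or more and stood above 1. Genes below 10 CPM in the remaining cells drop out of this count, and Mki67, Top2a and Cdk1 are themselves on the list. The count therefore does not show how many genes changed side. Of 19 DNA replication genes, 18 stood below 1 in granulosa cells, with a median log2 ratio of -0.30. The median over all genes measured there was -0.06, a ratio of 0.959, so most genes stood below 1 as well. In mesenchyme the medians were 0.15 for G2 and mitosis and -0.27 for replication, against 0.02 over all genes measured there. The named granulosa genes were also compared within cells above and below the mark of 2 UMIs. In the 804 and 1279 cycling granulosa cells the Grb14 ratio was 9.51, and in the 2167 and 3229 others it was 13.0. The ratios of Igfbp5 were 0.157 and 0.140 and those of Hsd3b1 0.310 and 0.343. The Amh ratio differed more between these cells, at 0.921 in cycling cells and 0.492 in the others.

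**Figure D2:**
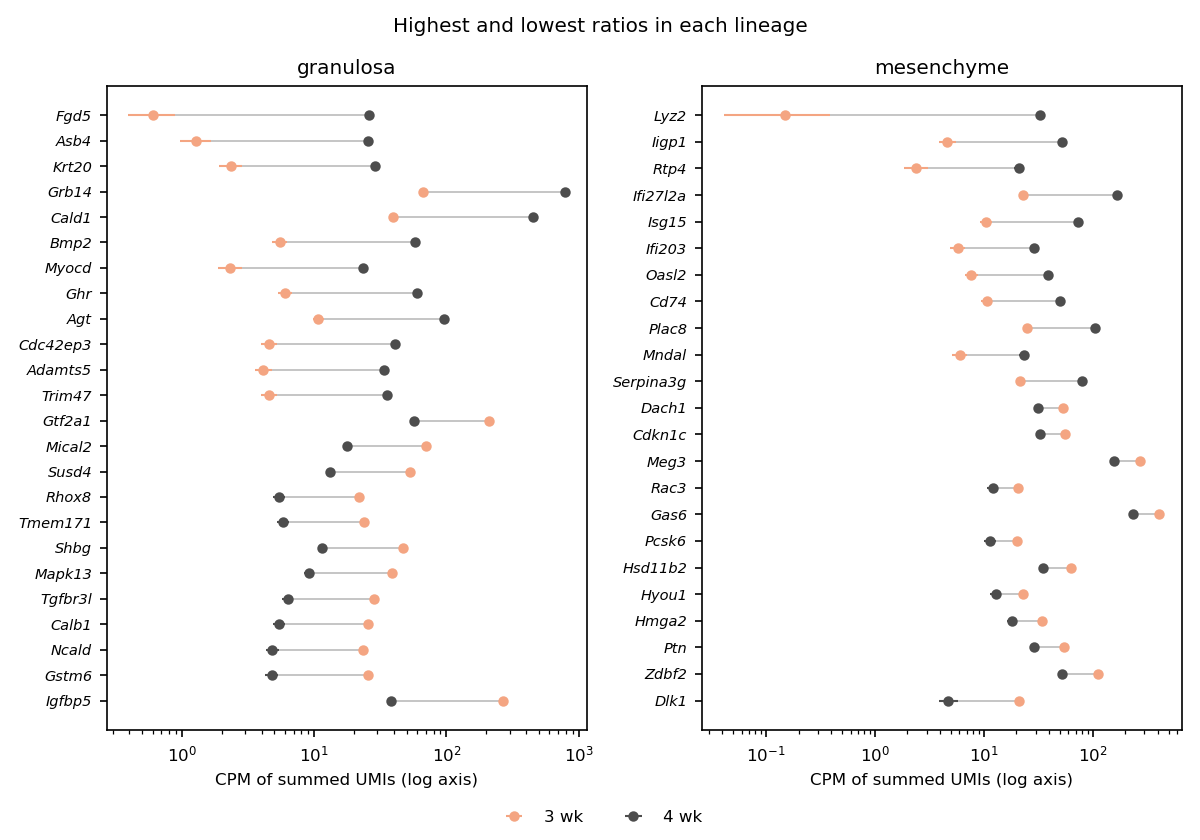
Genes with the highest and the lowest ratios in each lineage, among those with at least 20 CPM at either age, are plotted by CPM on a log axis at 3 wk and 4 wk, with 95% counting intervals as bars. Fgd5, at 0.604 and 25.8 CPM, has the widest gap among the granulosa genes, and Igfbp5, at 270 and 38.0 CPM, the widest among those lower at 4 wk.

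In mesenchyme the genes with the highest ratios included interferon-induced ones. Isg15, a ubiquitin-like modifier (ENSMUSG00000035692, chr4:156199424-156200818, minus strand), was at 10.5 CPM (9.33 to 11.8) at 3 wk and at 73.1 CPM (69.6 to 76.8) at 4 wk, a ratio of 6.95 (6.11 to 7.92). A UMI of Isg15 was seen in 5.47% (4.65 to 6.39) and 22.5% (20.8 to 24.2) of mesenchymal cells, or 2.90% and 15.8% at 4000 UMIs per cell. Among granulosa cells, which were sequenced more deeply, the shares were 1.45% and 2.48%, at 1.98 and 2.62 CPM. The mesenchymal share thus stood above the share in the other lineage at both ages.

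Promoter sequences of 4 of these genes are shown because the letters of the response element can be read in them. The sequences are the 250 bases before the start site in RefSeq on GRCm38.p6, written 5′ to 3′ along the gene. Capitals mark the fixed letters of GAAANNGAAA or of its reverse complement TTTCNNTTTC, searched on both strands with overlapping matches allowed. Gbp3 and Irgm1 were chosen for their matches after the values were seen.
Isg15: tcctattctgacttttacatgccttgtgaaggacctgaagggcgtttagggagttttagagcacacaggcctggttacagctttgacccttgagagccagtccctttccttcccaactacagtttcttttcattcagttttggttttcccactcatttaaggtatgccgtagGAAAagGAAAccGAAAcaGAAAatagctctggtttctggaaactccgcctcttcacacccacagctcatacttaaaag
Gbp3: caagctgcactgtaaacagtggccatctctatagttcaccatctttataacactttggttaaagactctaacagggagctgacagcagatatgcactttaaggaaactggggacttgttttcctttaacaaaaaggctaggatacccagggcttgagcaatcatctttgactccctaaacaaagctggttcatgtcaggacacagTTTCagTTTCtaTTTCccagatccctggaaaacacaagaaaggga
Irgm1: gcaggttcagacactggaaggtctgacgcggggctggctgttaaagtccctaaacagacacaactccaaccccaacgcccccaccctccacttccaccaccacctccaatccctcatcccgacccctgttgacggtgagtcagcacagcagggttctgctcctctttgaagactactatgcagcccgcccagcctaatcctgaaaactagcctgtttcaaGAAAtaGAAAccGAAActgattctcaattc
Cxcl10: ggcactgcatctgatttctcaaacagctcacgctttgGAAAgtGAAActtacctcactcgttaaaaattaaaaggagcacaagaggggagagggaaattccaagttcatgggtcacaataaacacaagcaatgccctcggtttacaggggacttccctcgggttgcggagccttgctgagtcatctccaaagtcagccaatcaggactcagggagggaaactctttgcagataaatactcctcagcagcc

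The Isg15 window (chr4:156200819-156201068, minus strand) held 3 overlapping matches that ended 68, 62 and 56 bases before the start. Gbp3, a guanylate-binding protein (chr3:142559794-142560043, plus strand), held 2 at 35 and 29 bases, and Irgm1, an immunity-related GTPase (chr11:48871421-48871670, minus strand), held 2 at 20 and 14 bases. Cxcl10, a chemokine (chr5:92348890-92349139, minus strand), held 1 at 203 bases. In mesenchyme Gbp3 was at 4.13 and 15.4 CPM and Irgm1 at 7.63 and 19.7 CPM. Over all RefSeq promoters of the table, 978 of 32851 (2.98%) held a match, and over those of the genes measured in mesenchyme 202 of 8301 (2.43%). Of the 74 genes at least 2-fold higher in mesenchyme, 59 had a promoter in the table, with a match in 17 of 69 promoters (24.6%). By gene it was 15 of 59 (25.4%), against 192 of 6468 (2.97%) for the genes measured in mesenchyme. These matches are not all separate. Dhrs3 and Mndal each had 2 overlapping windows with a match, which in Dhrs3 was the same site. Windows of Ifi203 and Mndal shared the letters around a match. In granulosa cells the shares were 8 of 205 promoters (3.90%) for the genes higher at 4 wk and 5 of 131 (3.82%) for those lower. A match is a run of letters and says nothing of binding.

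The other interferon-induced genes of mesenchyme ranged widely in level. Ifi27l2a, a small interferon-induced protein (ENSMUSG00000079017, chr12:103442167-103443680, minus strand), was at 23.1 CPM (21.3 to 25.0) at 3 wk and 169 CPM (164 to 175) at 4 wk, with a UMI in 11.3% and 46.2% of the cells. Its ratio was 7.32 (6.72 to 7.98), the share at 4000 UMIs was 7.02% and 34.9%, and in granulosa cells it was at 1.58 and 3.66 CPM. Iigp1, another immunity-related GTPase, was at 4.66 and 52.5 CPM, a ratio of 11.3 (9.35 to 13.7). Rtp4 was at 2.41 and 20.9 CPM, Oasl2, of the oligoadenylate synthetase family, at 7.74 and 39.0 CPM, and Ifi203 and Mndal, of the HIN-200 family of DNA-binding proteins, at 5.79 and 29.3 CPM and at 6.05 and 23.3 CPM. Ifitm3, a membrane protein that blocks viral entry, was already at 388 CPM at 3 wk and stood at 839 CPM at 4 wk, a ratio of 2.16. In granulosa cells Iigp1 was at 1.19 and 1.97 CPM, Rtp4 at 2.23 and 3.92 CPM and Oasl2 at 4.74 and 5.94 CPM, below the level of a measured gene. Several of these genes belong to families of similar copies, between which the counting can divide reads.

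The list of interferon and antigen presentation genes held 20 genes, and 16 were measured in mesenchyme. All 16 stood above a ratio of 1, 12 were at least 1.5-fold and 8 at least 2-fold higher, and the median log2 ratio was 0.99, against 0.02 over all genes measured. Rtp4, Oasl2, Irf7 and Tap1 were under 10 CPM at 3 wk and were measured only through their 4-wk level. A listed gene below 10 CPM at 3 wk could thus enter only with a higher level at 4 wk. The counts and the median lean to the high side for that reason. Of all genes measured in mesenchyme, 3.04% were at least 1.5-fold and 0.904% at least 2-fold higher. The summed level of the list was 2190 CPM at 3 wk and 3292 CPM at 4 wk. In granulosa cells 10 of the listed genes were measured, and 1 was at least 2-fold higher, against 2.6% of all genes measured there. At 1.5-fold, 4 were higher, against 6.1% of all genes, and 1 was lower, against 4.48%. The median log2 ratio of the list was 0.35 there, and the sum was 1099 and 1172 CPM. By role, the transcription factor Irf7 was at 5.00 and 18.7 CPM in mesenchyme. The antigen processing genes Psmb8 and Tap1 were at 10.1 and 27.0 CPM and at 9.28 and 19.8 CPM. The class I genes H2-K1 and H2-D1 and their light chain B2m stood at ratios of 1.63, 1.53 and 1.47, and Bst2 and Ifitm2 at 1.19 and 1.04. In granulosa cells the ratios of H2-K1, H2-D1 and B2m were larger, at 1.87, 1.95 and 1.84. Bst2 and Ifitm2 stood at 0.748 and 0.955 there. The higher level of the class I genes was thus not particular to mesenchyme.

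Interferon-induced genes were set side by side in cells with many and with few smooth muscle UMIs. In the 846 and 600 mesenchymal cells with at least 10 such UMIs the ratios were 7.19 for Isg15, 7.18 for Ifi27l2a, 7.58 for Iigp1 and 1.77 (1.53 to 2.05) for Cxcl10. In the 1913 and 1790 cells with fewer they were 6.70, 7.36, 12.2 and 3.05, so Cxcl10 was past 2-fold in the latter alone. Markers of blood cells moved with this result: the whole blood list summed to 15.8 CPM at 3 wk and 120 CPM at 4 wk in mesenchyme, against 18.4 and 21.4 CPM in granulosa cells, and its 3 measured genes were all at least 2-fold higher. Most of that sum came from few cells. Lyz2, the lysozyme of myeloid cells, was at 0.150 and 32.8 CPM with 97.9% of its 4-wk UMIs in 10 cells, and Cd74, the invariant chain of class II molecules, was at 10.7 and 49.9 CPM with 98.0% in 10 cells. Without the 3 and 14 cells that held blood markers, the Cd74 ratio was 0.335 and the Lyz2 ratio 7.37, while 8 genes of the interferon list were still at least 2-fold higher. Red blood cell genes were at 2.63 and 16.8 CPM.

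Genes outside the interferon list were past the fold as well. Plac8, a small cysteine-rich protein, was at 25.1 and 106 CPM, a ratio of 4.21 (3.86 to 4.59), with a UMI in 13.8% and 38.5% of the cells. Serpina3g, a protease inhibitor, was at 21.6 and 80.2 CPM. Star, the cholesterol carrier of steroidogenic cells, was at 12.7 and 26.3 CPM, a ratio of 2.08, and the metallothionein Mt2 stood at a ratio of 2.03. Both calls were lost under some alternatives. Star stood at 1.86 with thinning. Mt2 stood at 1.89 with stricter cell filters or gates, 1.97 without doublet calls, 1.96 with TMM and 1.99 with median-of-ratios scaling. The lists of other cell types in the mesenchyme gate were pericyte genes at 116 and 171 CPM, endothelial genes at 80.7 and 108 CPM, epithelial genes at 69.2 and 80.2 CPM and oocyte genes at 9.02 and 5.95 CPM. Collagens, a defining product of these cells, were level, with 18 measured, none past 2-fold and a median log2 ratio of 0.06.

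The lowest ratios of mesenchyme included imprinted genes, which are expressed from a single parental copy and act in fetal growth. Dlk1, a membrane protein of the Notch ligand kind that marks immature cells (ENSMUSG00000040856, chr12:109452823-109463336, plus strand), was at 20.9 CPM at 3 wk and 4.76 CPM at 4 wk, a ratio of 0.227 (0.183 to 0.281), with a UMI in 5.22% and 1.67% of the cells. The noncoding RNA H19 was at 13.2 and 4.21 CPM, a ratio of 0.319 (0.251 to 0.403), the noncoding RNA Meg3 at 270 and 159 CPM, a ratio of 0.587, and the cell cycle inhibitor Cdkn1c at 56.5 and 33.3 CPM, a ratio of 0.589. Zdbf2, also imprinted, was at 113 and 52.7 CPM, a ratio of 0.468 (0.436 to 0.501), with a UMI in 36.2% and 20.1% of the cells. Mest went the other way, at 41.8 and 78.3 CPM. Of the 18 listed imprinted genes in the files, 13 were measured in mesenchyme, 2 were at least 2-fold lower and the median log2 ratio was -0.29. These 2, Dlk1 and H19, were under 10 CPM at 4 wk and were measured only through their 3-wk level. A listed gene at such a level could enter only as lower. In granulosa cells 10 were measured, 1 was at least 2-fold lower and the median was -0.36. Of all genes measured, 0.183% were at least 2-fold lower in mesenchyme and 1.85% in granulosa cells, with medians of 0.02 and -0.06. Dlk1 rested on few cells at 4 wk, where 10 cells held 55.8% of its UMIs. In kept cells outside the gates with endothelial markers H19 was far higher, at 239 and 328 CPM, a ratio of 1.37 (1.12 to 1.69). Meg3 was at 86.0 and 35.8 CPM in those cells. The part of free RNA in the mesenchymal H19 level was not tested.

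The imprinted genes differed within the mesenchyme. In the cells with at least 10 smooth muscle UMIs the Dlk1 ratio was 0.766 (0.358 to 1.57) and that of Meg3 0.776. That of H19 was 1.86 (0.923 to 3.80), on 16 and 21 UMIs. In the cells with fewer the ratios of Dlk1, H19 and Meg3 were 0.195, 0.242 and 0.519. All of these ratios were thus lower in the latter. In the former the intervals of Dlk1 and H19 spanned both directions. Zdbf2 stood at 0.593 (0.527 to 0.667) in the cells with more smooth muscle UMIs and 0.418 in the others, and Cdkn1c at 0.589 (0.488 to 0.708) and 0.579, so both were lower at 4 wk in either group. Other genes of the low end differed in kind. Igfbp3, which binds insulin-like growth factors, was at 17.4 and 7.78 CPM, the growth factor Ptn at 54.8 and 29.2 CPM, the chromatin protein Hmga2 at 34.1 and 18.3 CPM, and Zfp711, a zinc finger protein, at 13.3 and 4.44 CPM. Hsd11b2, which inactivates glucocorticoids, was at 63.1 and 35.2 CPM. Of these, only Igfbp3 and Zfp711 were past 2-fold, and the ratio of Igfbp3, 0.446, was 0.704 under stricter cell filters (2000 genes, 10% mitochondrial UMIs) and 0.271 with equal weight per cell.

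**Figure D3:**
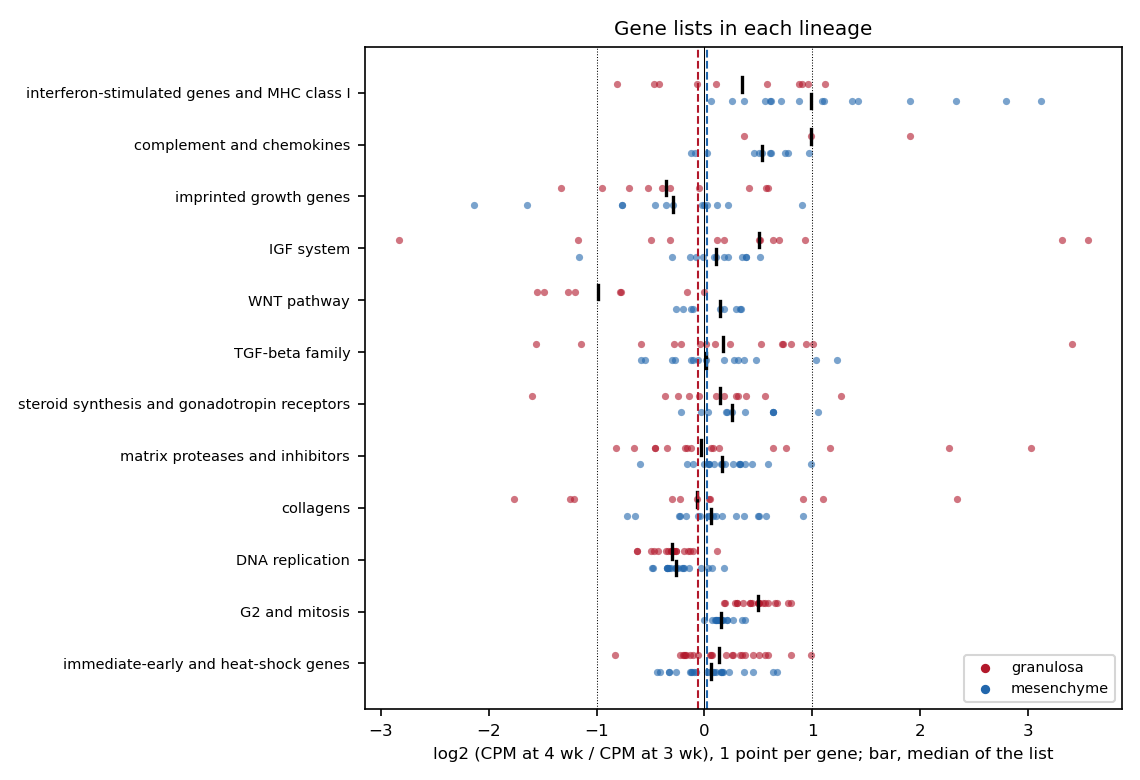
Each point is a measured gene of a list, placed by its log2 ratio of 4 wk over 3 wk, with granulosa cells and mesenchyme drawn apart; black bars are list medians, dashed lines the medians of all genes measured and dotted lines 2-fold. The interferon list lies to the high side in mesenchyme (median 0.99) and the WNT list to the low side in granulosa cells (median -0.99).

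The genes past 2-fold in the same direction in both lineages were few. Agt was at 10.8 and 95.7 CPM in granulosa cells and at 77.8 and 174 CPM in mesenchyme, ratios of 8.87 and 2.24. The ubiquitin ligase Trim47 stood at 7.72 and 2.46. Lgals3bp, a secreted glycoprotein, was at 6.53 and 14.1 CPM and at 22.7 and 72.1 CPM, and Il17ra, the receptor subunit for interleukin 17, at 17.3 and 38.2 CPM and at 14.6 and 30.1 CPM. The homeobox gene Hoxc10 had ratios of 2.53 and 2.17, and the lectin Clec2d 2.32 and 2.39. Some of these calls were lost under alternative processing. Thinning took Clec2d to 1.82 in both lineages, Lgals3bp to 1.89 in granulosa cells, and Il17ra to 1.81 and Hoxc10 to 1.93 in mesenchyme. Hoxc10 also fell short in mesenchyme with equal weight per cell (1.87) and without steroidogenic and smooth muscle cells (1.92). Without cycling cells it stood at 1.95 in granulosa cells, and Il17ra at 1.995 in mesenchyme. For 3 others of the 10 genes the shared direction itself is less certain. Bex4 was at 274 and 606 CPM in granulosa cells, and its mesenchymal level of 9.32 and 25.8 CPM was under 5% of that, the mark below which the part of RNA free in the droplets was not told apart from expression. The granulosa level of Ifitm3, 18.3 and 39.8 CPM, was under 5% of the mesenchymal one. The histone gene Hist1h2ap, of a family of near-identical copies, had ratios of 2.01 and 2.79, and in granulosa cells 1.03 without the cycling cells. The tenth was the predicted gene Gm42047, at 2.38 and 3.51, named here after its values were seen.

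On the low side, Cacna1d, a voltage-gated calcium channel subunit, was at 20.9 and 5.91 CPM in granulosa cells and at 12.8 and 6.04 CPM in mesenchyme, ratios of 0.283 and 0.473. The other gene was the predicted Gm21887, at 0.294 and 0.236, also named after its values were seen. Just short of the fold in mesenchyme, the proprotein convertase Pcsk6 was at 72.7 and 20.6 CPM and at 20.3 and 11.4 CPM, with ratios of 0.283 and 0.562. Gas6, the ligand of the TAM receptors through which dying cells are taken up (ENSMUSG00000031451, chr8:13465374-13494490, minus strand), was at 343 and 103 CPM in granulosa cells and at 410 and 237 CPM in mesenchyme, ratios of 0.300 and 0.578. Meg3 was close in both, with ratios of 0.617 and 0.587, and so was Hsd11b2, with 0.531 and 0.558.

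In 4 genes the lineages were past 2-fold in opposite directions. Cxcl10, whose promoter is printed above (ENSMUSG00000034855, chr5:92346638-92348889, minus strand), was at 46.7 CPM (44.7 to 48.8) at 3 wk and 19.9 CPM (18.8 to 21) at 4 wk in granulosa cells, and at 39.3 CPM (37.0 to 41.8) and 106 CPM (102 to 111) in mesenchyme. The lineages were thus near each other at 3 wk and apart at 4 wk. A UMI of Cxcl10 was seen in 11.7% and 6.61% of granulosa cells and in 9.68% and 14% of mesenchyme. Tifa, an adaptor of NF-kappaB signalling, was at 13.0 and 3.76 CPM in granulosa cells and at 2.44 and 10.4 CPM in mesenchyme. Dhrs3, which reduces retinaldehyde, was at 70.9 and 21.9 CPM and at 33.1 and 69.7 CPM. Rnf213, an interferon-inducible ubiquitin ligase, was at 67.2 and 32.7 CPM and at 15 and 32.8 CPM. In granulosa cells the ratios ran from 0.289 for Tifa to 0.487 for Rnf213, and in mesenchyme from 2.11 for Dhrs3 to 4.27 for Tifa. The granulosa call was lost for Rnf213 with equal weight per cell (0.511), thinning (0.537), TMM (0.509) and median-of-ratios scaling (0.508), and for Cxcl10 with thinning (0.515). With thinning a further gene of the 4 was no longer counted as opposite. Tifa lay near the limit of 10 CPM in both lineages.

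Of 14 granulosa genes that the study compares between follicle waves, 13 were measured in granulosa cells. At 4 wk 4 of them were at least 2-fold higher (Grb14, Cald1, Ghr and Mmp11) and 3 at least 2-fold lower (Igfbp5, Itga6 and Wnt4). Over all genes measured in granulosa cells these shares were 2.6% and 1.85%. The list mixes genes picked for differences in either direction with genes picked for little difference, so its median log2 ratio of -0.05 gives no direction. Of the study's remodeling genes 6 were measured, and Bmp2 and Cyp1b1 were at least 2-fold higher, with a median log2 ratio of 0.35. The study chose or compared these genes on libraries of this series, so their counts are not independent evidence of a direction.

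The step from 3 wk to 4 wk was set beside the other steps of the series, where 5 wk and 6 wk carry the later Cell Ranger version. In granulosa cells 363 genes (4.44%) were past 2-fold in either direction from 3 to 4 wk, 430 of 8380 (5.13%) from 2 to 3 wk, 374 of 8387 (4.46%) from 4 to 5 wk and 181 of 8510 (2.13%) from 5 to 6 wk. In mesenchyme the step from 3 to 4 wk held 89 genes (1.09%), against 352 of 8441 (4.17%), 228 of 8457 (2.7%) and 242 of 8548 (2.83%). The interval from 3 to 4 wk was therefore the one with the fewest such genes in mesenchyme, and not in granulosa cells.

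Over the 5 ages the named genes followed several courses. In granulosa cells Grb14 was at 52.0, 66.7, 783, 621 and 547 CPM at 2, 3, 4, 5 and 6 wk, and Bmp2 at 3.32, 5.49, 58.3, 50.9 and 56.0 CPM. These levels were low at 2 and 3 wk and high from 4 wk on. Wnt4 was at 381, 261, 109, 110 and 114 CPM and Igfbp5 at 858, 270, 38.0, 92.2 and 117 CPM. From 4 wk on Wnt4 was near level, whereas Igfbp5 was lowest at 4 wk and higher after it. Hsd3b1, at 713, 630, 208, 901 and 742 CPM, and Gas6, at 757, 343, 103, 460 and 218 CPM, were also lowest at 4 wk. The list of steroidogenic theca markers summed to 301, 156, 172, 3022 and 392 CPM in the granulosa gate at these ages. How far other steroidogenic cells or their RNA set the Hsd3b1 level at 5 wk was not tested. Inhba was at 53.9, 309, 105, 490 and 1093 CPM, so its level at 4 wk lay between those of 2 and 3 wk.

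The mesenchymal genes had a plainer course. Isg15 was at 4.18, 10.5, 73.1, 81.8 and 112 CPM and Ifi27l2a at 16, 23.1, 169, 280 and 359 CPM over the same ages. Plac8 was at 40.5, 25.1, 106, 258 and 238 CPM. All 3 stayed high after 4 wk. Dlk1 was at 70.6, 20.9, 4.76, 2.59 and 1.11 CPM, H19 at 12.4, 13.2, 4.21, 2.31 and 0.904 CPM, and Zdbf2 at 109, 113, 52.7, 35.5 and 12.7 CPM, each lower at every age after 4 wk than at 4 wk. Gas6 had its lowest mesenchymal level at 4 wk, at 684, 410, 237, 392 and 470 CPM.

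**Figure D4:**
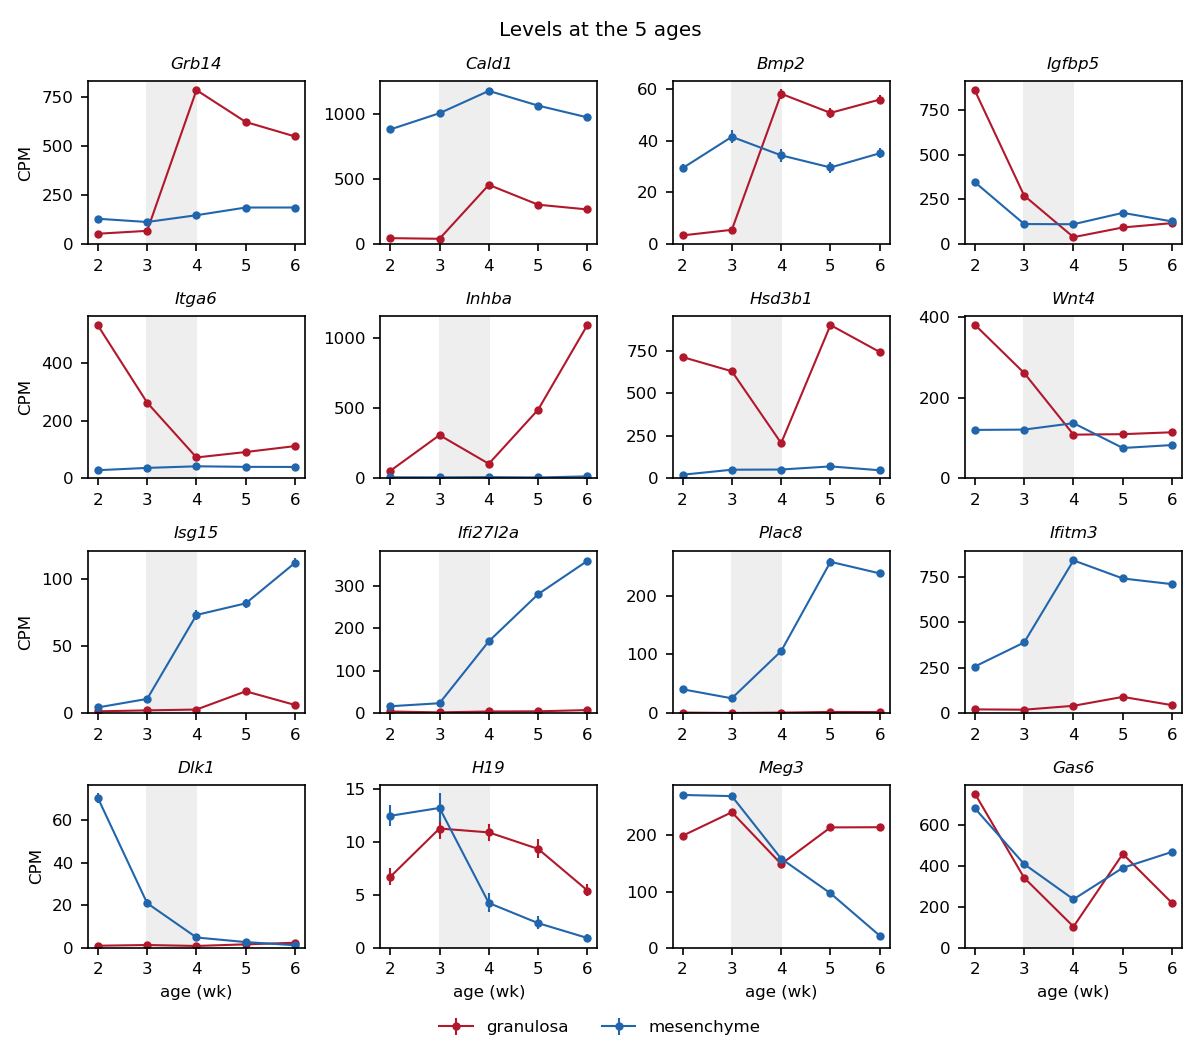
The levels of 16 genes in CPM are plotted over the ages of 2 to 6 wk in granulosa cells and mesenchyme, with 95% counting intervals as bars and a grey band from 3 to 4 wk. Grb14 and Bmp2 step up within the band in granulosa cells and Isg15 and Ifi27l2a in mesenchyme, whereas Hsd3b1 and Gas6 dip at 4 wk in granulosa cells.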

How the data were processed

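The authors sequenced dissociated mouse ovaries (10x Genomics 3′ v3.1) and used Cell Ranger on GRCm38 to count the UMIs of each gene in each cell; the deposited matrices hold these whole-number counts without normalization. The study's own clusters were not used. Counts were summed over the cells of a gate and scaled to CPM. Levels carry exact Poisson, shares Clopper-Pearson and ratios exact conditional intervals at 95%. A gene was measured at 10 CPM or more at 3 or 4 wk. A gene under 10 CPM at 1 of these ages was therefore measured only through the age at which it was higher. No test was run, with 1 library per age. Members, gene lists and rules were chosen with earlier results of these data known.

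Named genes were the 12 highest and 12 lowest ratios of each lineage among genes with at least 20 CPM, the 10 highest and lowest by the smaller change of both lineages, the opposite genes, the 8 largest of each single-lineage class, and up to 4 members of each list plus those past 2-fold; a selection is given in the text. Mitochondrial, ribosomal and predicted genes were left out, and some genes are not reported here. Tools were Python 3.11.15, numpy 2.4.6, pandas 2.3.3, scipy 1.17.1, scanpy 1.11.5 (Scrublet) and, for an alternative scaling, edgeR 4.0.16 in R 4.3.3. The ratio calculation was tested on simulated data. Gene positions are from GENCODE M21 and promoters from RefSeq.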

Additional observations from a re-analysis of the deposited data

Results flagged for a closer look

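The 4 genes past 2-fold in opposite directions were marked for a closer look because the lineages had opposite directions between the same libraries. The granulosa ratio divided by the mesenchymal ratio was 0.0675 (0.0493 to 0.0924) for Tifa, 0.147 (0.132 to 0.163) for Dhrs3, 0.157 (0.142 to 0.174) for Cxcl10 and 0.223 (0.195 to 0.255) for Rnf213. In granulosa cells Rnf213 lost the call under 4 alternatives (0.508 to 0.537) and Cxcl10 with thinning (0.515). With thinning a further gene of the 4 was no longer counted as opposite. The difference between lineages was not tested, since each age has 1 library, and the intervals cover counting error alone.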

How the results depend on the processing

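No paired analysis was possible because each age has 1 library, and for the same reason no replicate could be left out. The counts were 363 genes past 2-fold in granulosa cells, 89 in mesenchyme, 12 in both, 131 in 1 lineage only and 4 in opposite directions. They stayed at 346 to 461, 82 to 120, 9 to 13, 122 to 178 and 3 to 5 under stricter cell filters or gates, equal weight per cell, removal of doublet calls, of cycling, smooth muscle and steroidogenic or blood-marker cells, TMM or median-of-ratios scaling and thinning to 4000 UMIs, except that thinning gave 2 opposite genes, of which 1 was among the 4. At 50 CPM the counts were 124, 16, 1, 35 and 1, at 1.5-fold 864, 334, 63, 416 and 16, and without a CPM minimum 2711, 1941, 403, 1123 and 172. At 50 CPM fewer list members were measured: 3 of the interferon, 2 of the WNT and 11 of the mitosis genes kept their side, against 8, 4 and 20. Without cycling cells 4 mitosis genes were at 10 CPM or more and above 1, a count from which genes below 10 CPM drop out. The share of cells in the granulosa gate differed by 10.4 percentage points (4 wk minus 3 wk) and by 8.88 after thinning. The share of cells in the mesenchyme gate differed by -9.95 points, by -7.47 with stricter gates and by -5.91 after thinning. Cd74 reversed to 0.335 in mesenchyme without blood-marker cells. Of 120 named ratios past 2-fold, 105 (thinned) to 118 (without blood-marker cells) remained past it. The removal of blood-marker cells and the alternatives for the opposite genes and the gene lists were chosen after seeing the data. Counts of a few UMIs limit genes near 10 CPM.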

Other observations

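Some kept cells outside both gates carried endothelial or blood cell markers, and interferon-induced genes were read in them as well. In 73 and 98 cells with endothelial markers, Isg15 was at 63.3 CPM at 3 wk and 179 CPM at 4 wk, a ratio of 2.83 (1.98 to 4.13), and Ifi27l2a at 9.74 and 100 CPM. The light chain of class I molecules, B2m, was at 141 and 333 CPM, while Cxcl10 stood at a ratio of 1.10. In 42 and 62 cells with blood cell markers, Ifi27l2a was at 363 and 955 CPM, and Isg15 at 159 and 176 CPM, a ratio of 1.11 (0.770 to 1.61). Levels in these cells rest on few cells. Amh, a granulosa hormone, was also read in the cells with endothelial markers, at 170 and 63.5 CPM. How far free RNA or doublets set the levels in these cells was not tested.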
